A study of Arabidopsis thaliana with 12 samples.

Results

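Steady-state transcript levels of xrn3-8 seedlings were set against those of Col-0 seedlings before any cordycepin was given. The arrays were chosen by their labels: 6 of the 12 arrays of the series, 3 for each genotype, were compared over 22746 of the 22810 probe sets, all except the 64 Affymetrix controls. Col-0 is the wild type, and xrn3-8 is a line that carries the xrn3-8 allele; the labels do not give the kind of mutation. Both genotypes were whole seedlings grown on MS plates in long days, 14 days old, collected at 0 min without the drug. The other 6 arrays hold the same genotypes and age 60 min after cordycepin at 150 mg/l, and they served here to read the same genotype difference a second time; they also entered the estimate of the spread behind the calls at 0 min. All 4 groups hold 3 arrays, which the design text calls biological replicates.

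XRN3 is a nuclear 5′ to 3′ exoribonuclease of plants. When a nascent transcript is cleaved at its poly(A) site, RNA polymerase II goes on transcribing, and enzymes of this class degrade the trailing RNA from its uncapped end, a step linked to release of the polymerase. XRN3 of Arabidopsis is also known to degrade loops and other by-products of microRNA precursors and of ribosomal RNA processing. In its title the study links XRN3 to termination at protein-coding genes; the comparison at 0 min asks which transcripts stand at another level in xrn3-8 when transcription runs normally.

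The deposited values are log2 signals, so a difference of 1 is a 2-fold change. Between the 3 arrays of a genotype Pearson's r over all probe sets was 0.997 to 0.998, and between arrays of different genotypes it was 0.982 to 0.985. Signals at the 3′ and 5′ ends of the GAPDH control transcript differed by -0.20 to -0.06 on the Col-0 arrays and by -0.18 to -0.08 on the xrn3-8 arrays, ranges that overlap. Neither XRN3 itself nor XRN2, XRN4 or FRY1 is among the probe sets with a gene name here, so the genotype was not checked by the signal of XRN3. Of 57 cell type markers only 5 were measured, and none of them passed the test: the root hair expansins EXPA7 and EXPA18, Rubisco activase (RCA), the guard cell factor FMA and the stem cell peptide CLV3. For CLV3 both means lay under 3.01, the lower quartile of the arrays, so it had no readable signal. Whether the genotypes held equal shares of root, leaf and other tissue was therefore not tested. In RNA from whole seedlings, fewer cells of a type and less RNA per cell cannot be told apart.

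Transcript levels differed between the genotypes at 7264 probe sets, 31.9% of those tested, of which 3256 were higher and 4008 lower in xrn3-8 (limma on all 12 arrays, Benjamini-Hochberg adjusted p under 0.05, two-sided). Most of these differences were small. Their median size was 0.44 on the log2 scale, or 1.36-fold, and 4342 of them (59.8%) were under 0.5. All 3 arrays of one genotype lay above all 3 of the other at 44.1% of probe sets. At least 2-fold higher were 275 probe sets, 1.21% of those tested, and at least 2-fold lower were 317, or 1.39%. Changes of 4-fold or more were seen at 41 probe sets that rose and 57 that fell. The share of calls that were higher, 44.8%, turned to 56.4% when arrays were centred on Bacillus subtilis spike-in controls and to 50.2% with quantile normalization, so the balance of small rises and falls depended on how arrays were scaled. None of the 147 genes followed under these scalings changed direction.

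**Figure D1:**
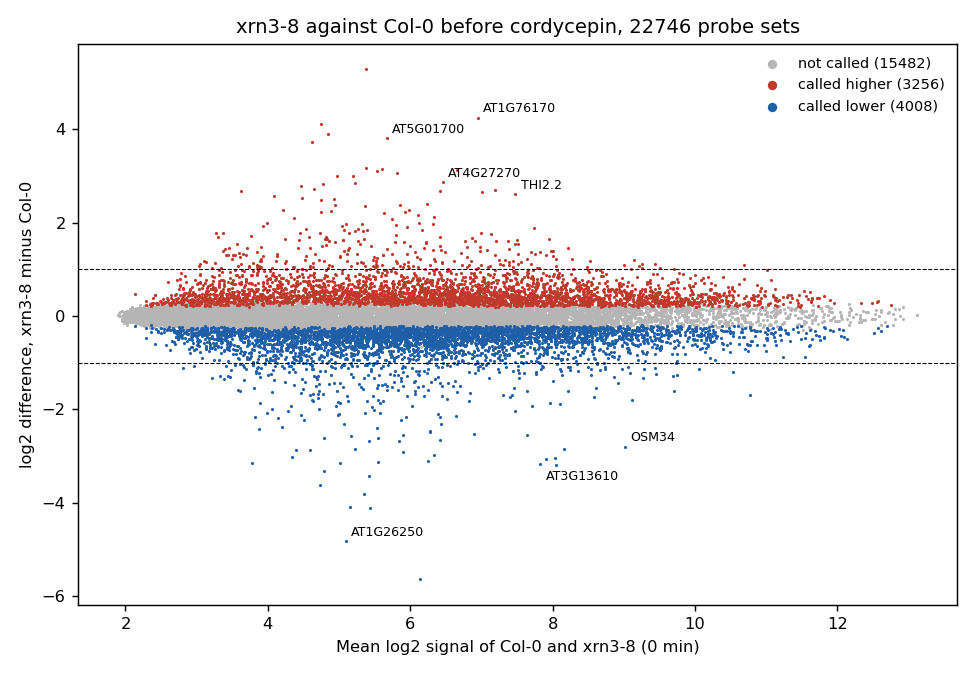
Log2 difference between xrn3-8 and Col-0 at 0 min (vertical axis) against the mean log2 signal of both genotypes (horizontal axis) for 22746 probe sets, 1 point each. Red points are the 3256 called higher, blue the 4008 called lower and grey those not called; dashed lines mark 2-fold, and the bulk of the coloured points lies between them.

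Genes that rose most had low signals in Col-0. The 20 largest rises among single-gene probe sets lay between 2.39 and 4.25 on the log2 scale, and the median of their Col-0 means was 3.71, against 6.56 in xrn3-8. AT1G76170, whose product resembles enzymes that thiolate transfer RNA, read 4.91, 4.81 and 4.74 on the Col-0 arrays and 8.99, 9.0 and 9.22 on the xrn3-8 arrays. That is a 19.0-fold rise (4.25 ± 0.11 SE, adjusted p = 2.43e-13). For AT5G01700, a protein phosphatase 2C, the Col-0 arrays gave 3.65, 3.74 and 3.89 and the xrn3-8 arrays 7.56, 7.58 and 7.58. In both genes each xrn3-8 array stood far above each Col-0 array, with a gap many times the spread within a genotype. AT4G27270, of the quinone reductase family, rose 7.3-fold (2.87 ± 0.09) from 5.02 ± 0.11 (SD) to 7.89 ± 0.10. AT1G12600, of the nucleotide sugar transporter family, rose 7.1-fold, and AT3G02480, a late embryogenesis abundant protein, rose 8.0-fold with a wider spread among its xrn3-8 arrays (6.51, 6.84 and 6.07). In 3 of the 20 genes the Col-0 mean was under 3.01, the lower quartile of the arrays and here the mark for a signal near background; fold changes of such genes may understate the rise.

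Genes of known function among the rises act in several processes. NRPD7, a subunit of the plant-specific RNA polymerases that act in RNA-directed DNA methylation, gave 3.16, 3.13 and 2.92 in Col-0 and 5.81, 5.98 and 5.81 in xrn3-8, a 6.9-fold rise (2.80 ± 0.11, adjusted p = 1.53e-11). It stood alone among the 12 RNA polymerase subunits measured. The other 11 lay between -0.26 and 0.41, and the small calls among them (3 higher and 1 lower) were each lost when single arrays were left out. QQS, a gene found only in Arabidopsis that influences starch and protein content, read 5.78, 5.88 and 5.84 in Col-0 and 8.39, 8.61 and 8.60 in xrn3-8. SAG29, a sugar transporter of the SWEET family linked to senescence, rose 5.7-fold (2.51 ± 0.15), the tetraspanin TET9 5.3-fold (2.39 ± 0.13) and MBAC1, a mitochondrial carrier of basic amino acids, 4.5-fold (2.17 ± 0.09). SBT3.3, a subtilisin-like protease tied to immune priming, read 4.33, 4.32 and 4.35 in Col-0 against 6.31, 6.15 and 6.47 in xrn3-8 (1.98 ± 0.11), while its relative SBT3.5 fell by 1.29 ± 0.12.

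**Figure D2:**
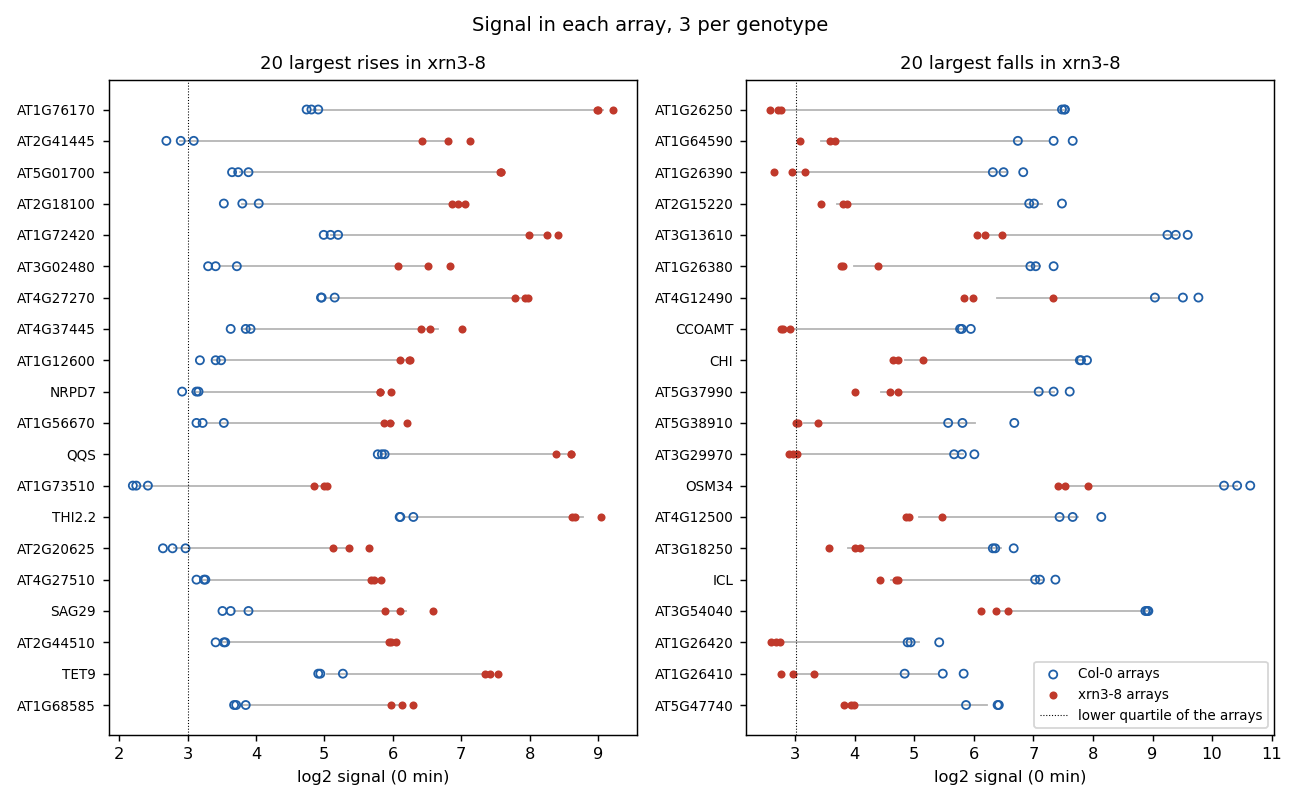
Log2 signal on each of the 3 Col-0 arrays (open blue circles) and 3 xrn3-8 arrays (filled red circles) at 0 min for the 20 largest rises and the 20 largest falls; grey lines join the group means and the dotted line is the lower quartile of the arrays, 3.01. No gene shows overlap of the genotypes, since that was part of the rule for naming it.

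Genes that fell most were well expressed in Col-0, with a median of 7.16 there against 3.90 in xrn3-8. The choice of genes favours this: their differences ran from -4.83 to -2.31, and a gene near background in Col-0 could not fall so far. AT1G26250, an extensin-type proline-rich wall protein, read 7.53, 7.48 and 7.52 in Col-0 and 2.76, 2.58 and 2.71 in xrn3-8, a fall from a clear signal to below the near-background mark (-4.83 ± 0.12, adjusted p = 1.21e-13). The true fall may be larger than these values. OSM34, an osmotin-like protein of pathogen defence, kept a signal in xrn3-8: it read 10.64, 10.20 and 10.42 in Col-0 and 7.53, 7.92 and 7.41 in xrn3-8 (-2.80 ± 0.14). CHI, a chitinase, fell by 2.99 ± 0.12 and ICL, isocitrate lyase of the glyoxylate cycle, by 2.56 ± 0.12. Lower too were AT3G54040 (-2.55 ± 0.12), AT1G64590, of the short-chain dehydrogenase family (-3.80 ± 0.19), and AT2G15220, a secreted protein of the basic secretory family whose probe set can bind related transcripts (-3.43 ± 0.15). The xrn3-8 mean lay under 3.01 in 5 of the 20 largest falls.

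Transcripts for part of the coumarin pathway were lower in xrn3-8. Coumarins such as scopoletin are phenolics made from feruloyl-CoA and secreted by roots, where they help to mobilise iron and act against microbes. Of 11 genes listed for the pathway 6 could be measured. Of all 13355 named genes, each read by 1 probe set, 28.8% were called in either direction and 1.04% were at least 2-fold higher. In the coumarin list 3 were lower, 0 were higher, and the median was -0.59, whereas 15.8% of all 13355 named genes were lower and their median was -0.003. The list's median Col-0 signal was 6.2, and 27.2% of probe sets with a mean signal between 5.62 and 7.24 were lower. AT3G13610 encodes F6'H1, the hydroxylase that commits feruloyl-CoA to scopoletin, and read 9.59, 9.25 and 9.39 in Col-0 against 6.18, 6.47 and 6.06 in xrn3-8, a 9.0-fold fall (-3.17 ± 0.13). AT1G28680 encodes COSY, the enzyme that closes the coumarin ring, and fell 2.1-fold (-1.10 ± 0.11). CCOAMT, a caffeoyl-CoA methyltransferase, went from 5.77, 5.80 and 5.95 to 2.80, 2.92 and 2.77, at or below the near-background mark on every xrn3-8 array. Each of these 3 genes was lower on every xrn3-8 array than on any Col-0 array. Of all named genes 41.1% had no overlap between the genotypes, in either direction. The other measured members lay near 0: the second hydroxylase F6'H2 (AT1G55290) at -0.07 ± 0.09, scopoletin 8-hydroxylase (AT3G12900) at -0.03 ± 0.13 and the glucosidase BGLU42 at 0.01 ± 0.08.

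A gene of iron signalling rose instead. BHLH101, a transcription factor of the iron deficiency response, read 3.02, 2.81 and 2.82 in Col-0 and 3.97, 4.57 and 4.05 in xrn3-8 (1.31 ± 0.13, adjusted p = 1.38e-06). The regulator PYE was at 0.12 ± 0.07 (adjusted p = 0.274). The Col-0 mean of BHLH101, 2.88, lay under the near-background mark. BHLH101 and PYE were picked after their values were seen, and they were the only measured members of 24 genes listed for iron uptake and storage. AT1G47400, a small peptide gene of the same response that was also looked up afterwards, gave 4.83, 5.37 and 4.81 in Col-0 and 6.82, 7.25 and 6.64 in xrn3-8, a difference of 1.90 ± 0.18.

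Many class III peroxidases were lower, and about as many did not pass the test. These secreted enzymes cross-link wall polymers and lignin or produce and consume hydrogen peroxide in the wall. Of 73 genes 55 were measured, and 25 of them (45.5%) were lower and 4 higher, beside 15.8% and 13% of all named genes. The median was -0.26. Of probe sets with a mean signal between 3.92 and 5.62, 24.3% were lower and 16.2% higher. That range holds the family's median Col-0 signal, 4.51. The family was added after values were seen, so its larger share of falls is a description and was not tested. Of the 55, 13 fell at least 2-fold, against 1.23% of named genes, and 26 passed in neither direction. AT5G19890 read 7.19, 6.84 and 6.93 in Col-0 and 4.84, 5.0 and 4.45 in xrn3-8 (-2.22 ± 0.16). AT2G41480 went from 7.11, 6.95 and 7.01 to 4.92, 4.95 and 4.69 (-2.17 ± 0.12). In neither gene did the genotypes overlap, which was also so for 41.1% of all named genes, and both kept a signal in xrn3-8. Falls reached strongly expressed members too, of which 2 are given after their values were seen. AT5G64120 went from 10.07 to 8.83 and its neighbour in the gene numbering, AT5G64100, from 9.17 to 7.91. The highest rises were 0.55 ± 0.09, for AT2G34060 and AT1G71695. Of the 26 members that did not pass, 8 had both means under the near-background mark.

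Berberine bridge enzyme-like oxidases fell in part of the family. They are flavin enzymes, some of which oxidise oligosaccharides from the wall or take part in indole defence compounds. Of 16 measured members 7 (43.8%) were lower and 1 higher, beside 15.8% and 13% of all named genes, with a median of -0.18. The other 8 did not pass. Their median Col-0 signal was 5.47 over all 16, and 24.3% of probe sets with a mean signal between 3.92 and 5.62 were lower. The falls were largest in a run of genes with neighbouring locus codes: AT1G26390 (-3.63 ± 0.16), AT1G26380 (-3.12 ± 0.15), AT1G26420 (-2.41 ± 0.13) and AT1G26410 (-2.37 ± 0.22). AT1G26380, which takes part in making indole cyanogenic compounds, read 7.34, 6.95 and 7.04 in Col-0 and 3.77, 3.81 and 4.39 in xrn3-8. Singled out after its values were seen, AT1G26400 of the same run had no readable signal in either genotype (2.36 and 2.31). The oligogalacturonide oxidase AT4G20830 fell by 0.48 ± 0.08, and AT5G44400, the 1 member called higher, rose by 0.59 ± 0.10. Without the first Col-0 array 8 members were lower.

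**Figure D3:**
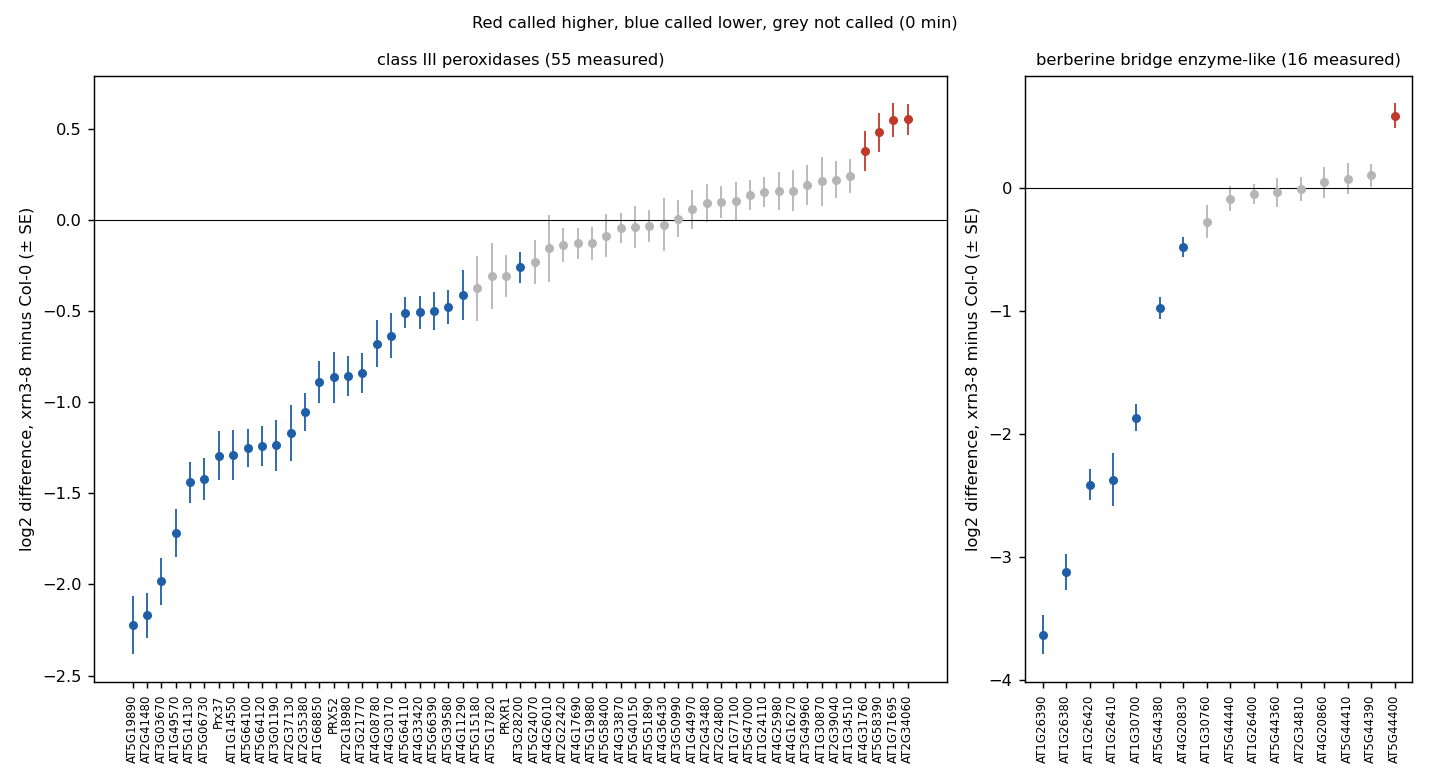
Log2 difference between xrn3-8 and Col-0 at 0 min (± SE, vertical axis) for each measured class III peroxidase (left, 55 genes) and berberine bridge enzyme-like gene (right, 16 genes), ordered by size. Of the peroxidases 25 are called lower (blue) and 4 higher (red); grey genes did not pass.

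Other wall and defence families held single members with large differences. Among 9 extensins and wall proline-rich proteins 4 were lower and 0 higher (median -0.24), with AT1G26240, whose locus code is next to that of AT1G26250, at -1.15 ± 0.13; the smallest of these calls, AT1G23720, was lost without any of 4 single arrays (-0.27 to -0.37). Expansins, which loosen the wall, held 3 members that rose (15.8%) and 2 that fell (10.5%) among 19 genes, shares near the 13% and 15.8% of all named genes: EXPA8 rose by 1.58 ± 0.13 and EXPA4 by 1.21 ± 0.12, while EXLA3 fell by 1.34 ± 0.14. The third rise, EXPB3 (0.53), lost its call without any of 4 single arrays (0.38 to 0.55). Xyloglucan endotransglucosylases, which cut and rejoin xyloglucan chains, held XTH32, which rose 2.8-fold, and XTH33, which fell 3.4-fold, among 10 genes, and the other 8 did not pass. Of the clustered lipid transfer-type genes around the immune signalling gene AZI1, AT4G12490 went from 9.51, 9.04 and 9.77 to 5.99, 5.83 and 7.33, with the third xrn3-8 array nearest to Col-0, and AT4G12500 fell by 2.66 ± 0.26, while the other 3 measured genes of that type did not pass. Of 11 germin-like genes 3 were lower and 2 higher (median 0.08), from AT5G38910 at -2.87 ± 0.25 to AT3G04200 at 1.14. Of 15 MLP genes 5 were lower and 3 higher (median -0.01), from AT4G14060 (-2.12 ± 0.25) and AT4G23680 (-2.04 ± 0.13) to AT1G14960 (1.77 ± 0.20).

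Of 8 measured defensins and thionins, which are antimicrobial peptides, 3 were higher, 2 were lower and 3 did not pass (median 0.11). Of all named genes 13% were higher and 15.8% lower. The thionin THI2.2 read 6.30, 6.11 and 6.10 in Col-0 and 9.04, 8.67 and 8.62 in xrn3-8, a 6.1-fold rise (2.61 ± 0.11), and the defensin PDF2.1 rose 4.6-fold from 4.80, 4.59 and 4.19 to 6.54, 7.12 and 6.56. PDF1.2, a defensin used as a marker of jasmonate and ethylene defence, fell by 0.87 ± 0.11. Its close copy PDF1.2b (-0.45 ± 0.13) is read by a probe set that can bind related transcripts, and its call was lost without the first Col-0 array (-0.35) or the third xrn3-8 array (-0.30). The other thionin measured, THI2.1, was at 0.18 and did not pass, but both of its means (2.77 and 2.95) lay under the near-background mark.

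Among enzymes that conjugate or oxidise small molecules, some members rose and others fell. Of 14 glutathione transferases 5 rose and 2 fell (median 0.12): ATGSTF13 rose by 1.77 ± 0.12, GSTU16 by 1.44 ± 0.09 and GSTU20 by 1.01 ± 0.10, whereas GSTU22 went from 6.45, 5.79 and 5.90 to 3.95, 3.85 and 3.95 (-2.13 ± 0.14). Of 51 UDP-glycosyltransferases 8 rose (15.7%), 14 fell (27.5%) and 29 did not pass (median -0.01), beside 13% and 15.8% of all named genes. This family was added after values were seen, and its shares were not tested. Its median Col-0 signal was 4.40. Of probe sets with a mean signal between 3.92 and 5.62, 16.2% were higher and 24.3% lower. UGT76B1, which glucosylates salicylic acid and isoleucic acid, fell by 1.71 ± 0.11, and UGT72E2, which glucosylates monolignols, fell by 1.52 ± 0.13; UGT73B1 rose by 1.27 ± 0.12. Cytochromes P450 gave 6 rises (21.4%) and 4 falls (14.3%) among 28 genes, near the shares of all named genes, led by CYP71B26 (1.41 ± 0.12) and CYP71B6 (-1.38 ± 0.08). The fall of CYP71B37 lost its call without any of 3 single arrays (-0.34 to -0.23).

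**Figure D4:**
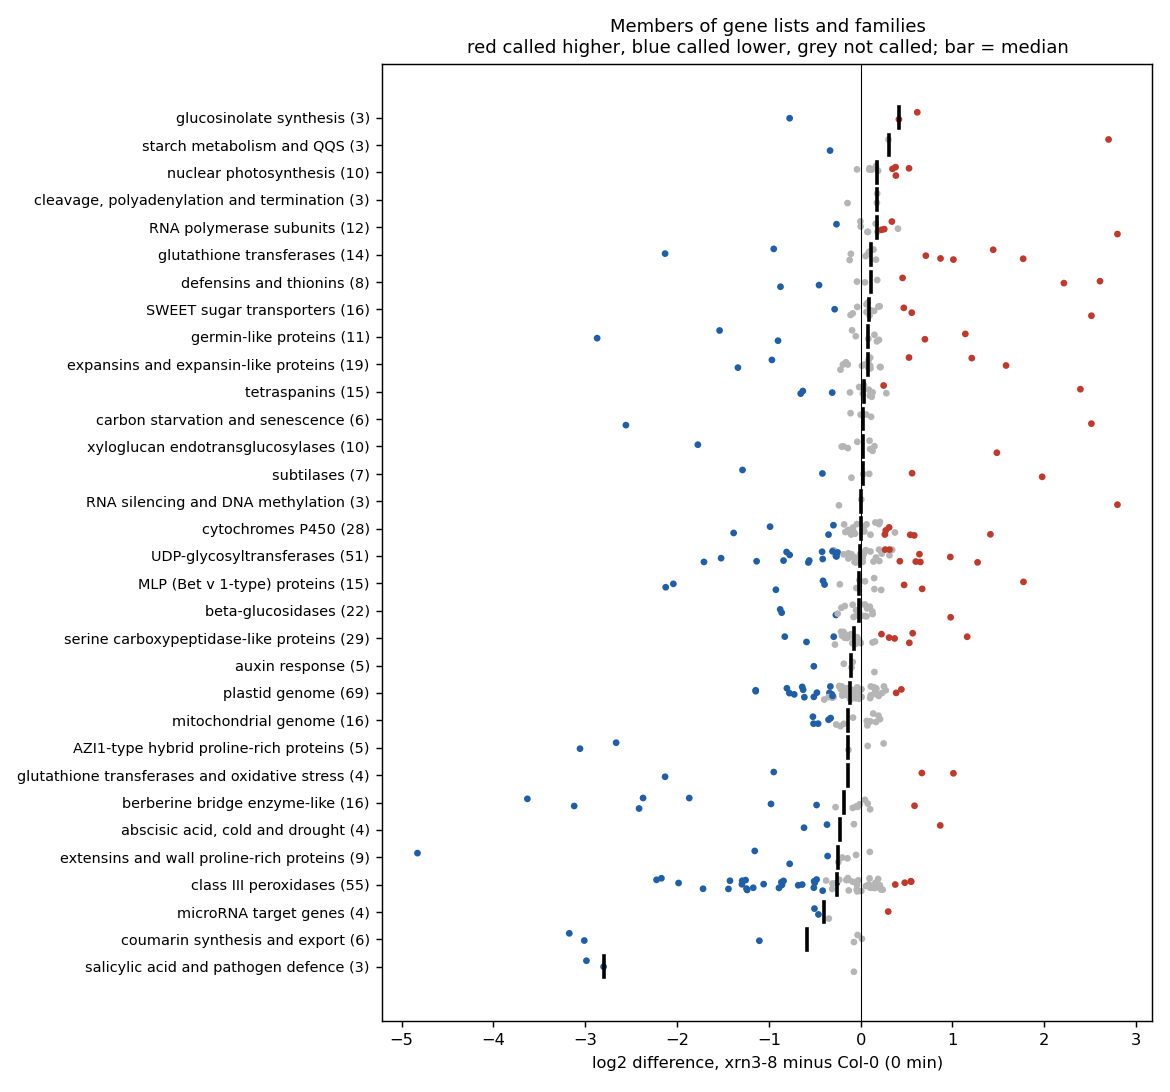
Log2 difference between xrn3-8 and Col-0 at 0 min for each measured member (points) of 32 gene lists and families, with the number measured in brackets and the median as a black bar. Red points were called higher, blue lower and grey not called; coumarin genes and class III peroxidases lie mostly to the left of 0, while glutathione transferases lie on both sides.

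Differences of photosynthesis and organelle genes were mostly small. Of 10 nuclear genes measured among 53 listed, 4 were higher and 0 lower, with a median of 0.18. Phosphoribulokinase (PRK), of the Calvin cycle, read 11.25, 11.32 and 11.22 in Col-0 and 11.82, 11.82 and 11.73 in xrn3-8 (0.53 ± 0.08). SBPASE, of the same cycle, was at 0.38 ± 0.08 and PSBY of photosystem II at 0.38 ± 0.09, and with hybridization control centring both lost their calls (adjusted p = 0.0717 and 0.0683). The last was LHCB4.3 at 0.35 ± 0.11, not called under that centring either; the call of LHCB4.3 was lost without the first Col-0 array (0.26), the second Col-0 array (0.35) or the second xrn3-8 array (0.24). Of 69 plastid-encoded genes 15 (21.7%) were lower and 2 higher, beside 15.8% and 13% of all named genes, with a median of -0.12, and 52 did not pass. The median Col-0 signal of these 69 genes was 10.18. Of probe sets with a mean signal between 7.24 and 13.14, 25.7% were lower and 25.1% higher. The share of plastid genes called lower was therefore not above that of probe sets of like signal. The photosystem II genes psbC and psbD fell most, each by 1.14. For psbC the arrays gave 10.84, 10.61 and 10.43 in Col-0 and 9.48, 9.43 and 9.54 in xrn3-8. The polymerase genes rpoB (4.37, 4.78 and 5.27 in xrn3-8) and rpoC2 (6.89, 7.12 and 7.66) stood nearest to Col-0 on the third xrn3-8 array, and without that array 18 plastid genes were lower. Leaving out the first Col-0 or the first xrn3-8 array left 11. Of 16 mitochondrial genes 5 (31.25%) were lower and 0 higher (median -0.13), led by nad9 (-0.52 ± 0.08), beside 15.8% and 13% of all named genes. Their median Col-0 signal was 5.34, and 24.3% of probe sets with a mean signal between 3.92 and 5.62 were lower. Of the 5 calls 3 were lost without any of 4 single arrays each: matR (-0.50 to -0.42), nad4L (-0.35 to -0.26) and nad1 (-0.36 to -0.23).

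Several lists held too few readable genes to describe as pathways, or had members that moved apart. In the carbon starvation and senescence list ICL fell and SAG29 rose, while the other 4 measured members, which act in the breakdown of amino acids, lay between -0.11 and 0.11. COR15B of the cold response rose by 0.87 ± 0.12, its partner COR15A was at -0.07 and did not pass, and LTI30 fell by 0.62 ± 0.09. COR47 was lower (-0.37 ± 0.07), a call lost with hybridization control centring (adjusted p = 0.066). GI, a component of the circadian clock and the only clock gene measured, read 8.83, 8.82 and 8.89 in Col-0 and 8.20, 8.22 and 8.34 in xrn3-8. In glucosinolate synthesis UGT74B1 fell by 0.77 ± 0.08, whereas AT2G31790 (UGT74C1) rose by 0.62 and BCAT4 by 0.42 ± 0.09. Of 3 cleavage and polyadenylation factors measured among 17 listed, none passed, and the values were -0.14 to 0.18. Genes targeted by microRNAs gave SMZ (-0.50 ± 0.10) and APS4 (-0.46 ± 0.08) lower and SNZ (0.30 ± 0.08) higher among 4 measured of 46 listed; the call of SNZ was lost with hybridization control centring (adjusted p = 0.195).

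The same genotype difference was then read from the 6 arrays at 60 min, whose group means share no array with those at 0 min. All 20 of the largest falls were lower again, each at least 2-fold, and their median was -2.76 against -2.89 at 0 min; 15.6% of all probe sets were lower at 60 min. Of the 20 largest rises 19 were higher again, beside 16.6% of all probe sets, but 10 were still at least 2-fold higher and the median was 0.98 against 2.76. The genotype difference was smaller at 60 min than at 0 min in 16 of the 20 rises and 4 of the 20 falls by the interaction term, which was called for 8.05% of probe sets. The genes were picked for their size at 0 min, which by itself favours smaller values in the second reading. QQS (2.79 ± 0.08), THI2.2 (2.88 ± 0.11), SAG29 (2.37 ± 0.15) and TET9 (2.06 ± 0.13) stayed high. For AT5G01700 the difference was 0.10 ± 0.08 at 60 min (adjusted p = 0.366), where Col-0 stood at 6.48 and xrn3-8 at 6.58. Over the 20 rises the median signal at 60 min was 4.18 in Col-0 and 5.85 in xrn3-8; the xrn3-8 mean was below its 0 min value in 18 genes and the Col-0 mean above its own in 16.

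**Figure D5:**
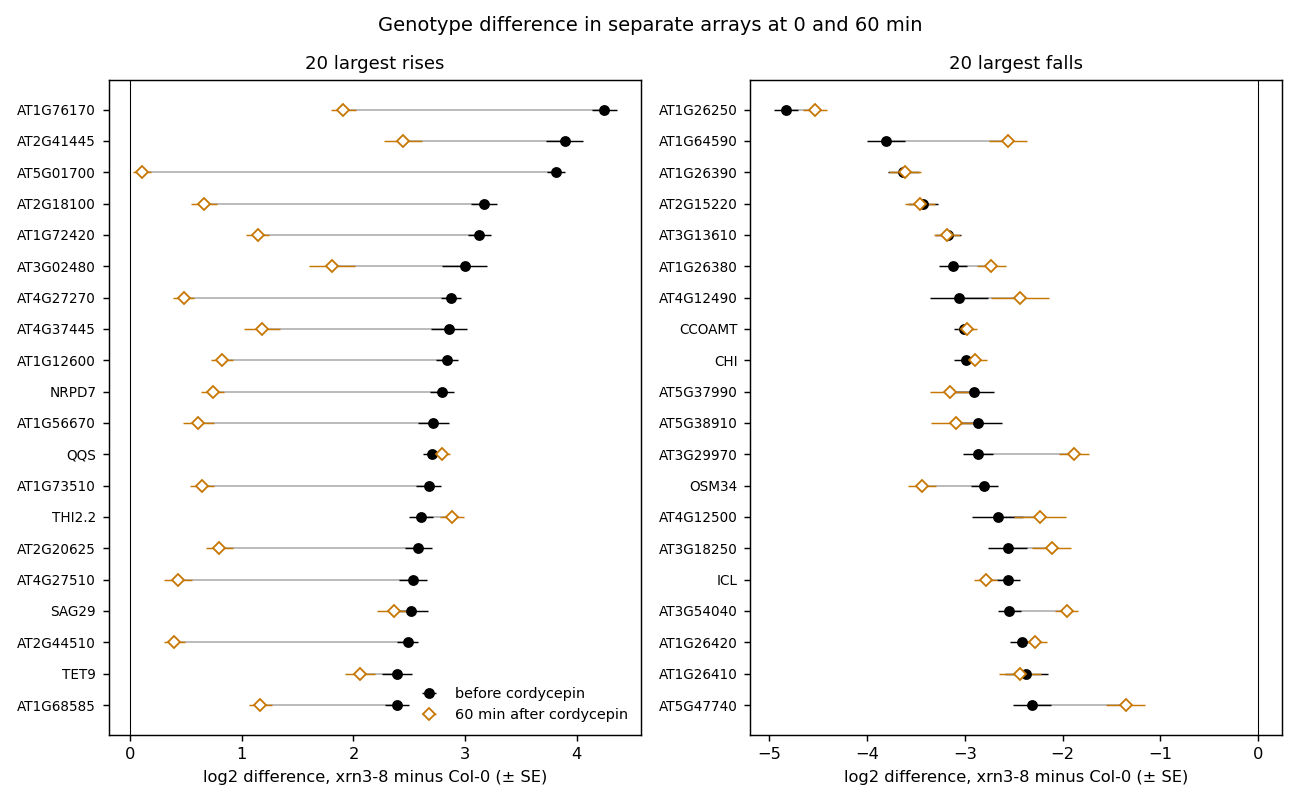
Log2 difference between xrn3-8 and Col-0 (± SE, horizontal axis) before cordycepin (filled black circles) and 60 min after it (open orange diamonds) for the 20 largest rises and 20 largest falls at 0 min. Falls lie close together at both times, with a median of -2.89 and -2.76, while most rises shrink, from a median of 2.76 to 0.98.

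Of the 25 class III peroxidases lower at 0 min, 24 were lower again at 60 min. In all, 32 of 55 were lower at 60 min with a median of -0.49, beside 13.9% of all named genes. All 3 coumarin genes were lower again, with AT3G13610 at -3.18 ± 0.13. Of the 7 berberine bridge enzyme-like genes 6 were lower again. In contrast, 1 of the 15 plastid-encoded genes was lower at 60 min, and psbD lay at -0.16 (adjusted p = 0.494). Of all 69 plastid-encoded genes 6 were higher and 1 lower at 60 min, with a median of -0.05. Of all named genes 15.1% were higher and 13.9% lower at that time. BHLH101 was at 0.23 (adjusted p = 0.214) and NRPD7 at 0.74 ± 0.11.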

How the data were processed

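Total RNA was labelled as biotin cRNA and read on 12 Affymetrix 1-colour arrays. The authors deposited 1 log2 value for each probe set and array. The submitters' processing notes list affy 1.48.0 beside limma 3.26.9; the background correction, normalization and summary are not given in the sources used here. Column medians were 4.86 to 4.87 in Col-0 and 4.80 to 4.82 in xrn3-8 at 0 min, and no detection calls were used. The number of arrays limits the precision.

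Using R 4.3.3, limma 3.58.1 estimated 4 group means from all 12 arrays by lmFit, and eBayes added 7.96 prior to 8 residual degrees of freedom. The contrast of xrn3-8 minus Col-0 at 0 min was tested two-sided over 22746 probe sets. Every adjusted p is Benjamini-Hochberg over these. Of the probe sets 13513 have 1 gene name, 503 have several and 8730 are unnamed here; names were updated through TAIR10.1 for 13436, and 13355 genes were represented by their brightest probe set. No coordinates or sequences are given here.

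The text names the 20 largest rises and falls on probe sets of 1 gene that were called and had no overlap between genotypes, the 10 and 10 largest with a symbol, up to 6 called members per list, and members that define a list. Of the 26 lists, 15 had at least 3 measured members; 17 families were added after values were seen. Cytosolic ribosomal proteins were not listed here, because the annotation used gives no product names. Members and lists were chosen with earlier results of these data known, so list counts are descriptions and were not tested as sets. Replicate numbers did not pair the samples: deviations of same-numbered arrays from their group means correlated at 0.05, 0.04 and 0.08. The fit was tested on simulated data.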

Additional observations from a re-analysis of the deposited data

Results flagged for a closer look

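Among the 40 genes with the largest rises or falls at 0 min, 20 had a genotype difference that changed between 0 and 60 min by the interaction term (limma, adjusted p under 0.05). Values are the difference at 60 min minus that at 0 min, on the log2 scale. Genes raised in xrn3-8 had negative values, so the excess was smaller at 60 min. The change was largest for AT5G01700 (-3.71), AT2G18100 (-2.51), AT4G27270 (-2.40) and AT1G76170 (-2.34). It was -2.11 for AT1G56670 and for AT4G27510, -2.09 for AT2G44510, -2.06 for NRPD7, -2.03 for AT1G73510 and -2.01 for AT1G12600. Smaller values were found for AT1G72420 (-1.99), AT2G20625 (-1.78), AT4G37445 (-1.68), AT2G41445 (-1.45), AT1G68585 (-1.23) and AT3G02480 (-1.19). Genes lowered in xrn3-8 had positive values, so the deficit was smaller at 60 min: AT1G64590 (1.24), AT3G29970 (0.98), AT5G47740 (0.96) and AT3G54040 (0.59).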

How the results depend on the processing

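The count of 7264 called probe sets was 6529 to 8200 under 8 of the 9 alternatives that kept all arrays of the comparison, and 4419 with hybridization control centring. Rises made up 44.8% of calls, but 56.4% with Bacillus subtilis control centring and 50.2% with quantile normalization. Bacillus subtilis centring moved the median difference of all probe sets from -0.01 to 0.05, and hybridization control centring to -0.02. Leaving out 1 array at a time gave 5815 to 6537 calls, 44.0 to 45.7% of them higher, 262 to 294 probe sets at least 2-fold higher and 305 to 334 at least 2-fold lower. It left 23 to 24 class III peroxidases lower and 3 to 4 higher, 7 to 8 berberine bridge enzyme-like genes lower, 3 coumarin genes lower and 11 to 18 plastid genes lower. The arrays left out were all from 0 min, so the counts at 60 min (19 rises and 20 falls) were not tested this way. Those counts were 18 rises with Bacillus subtilis centring and 17 with hybridization control centring. They were 17 rises without the dim probe sets and 19 falls without _s_at and _x_at probe sets, but these filters removed members instead of their calls. NRPD7 and AT1G73510 are among the dimmest 40%, and AT2G15220 is read by an _s_at probe set. With the replicate number as a block, 7426 probe sets were called, 44.7% higher; of the named genes NRPB6A alone lost its call (adjusted p = 0.0552), while 27 peroxidases were lower. Of 2190 values for 147 named genes under the alternatives, 0 changed direction and 95, in 22 genes, fell short of the threshold. Medians of 24 of 32 lists moved by more than the spread between xrn3-8 arrays in 75 of 480 values, most often when the dimmest 40% of probe sets were left out, as fewer members remain; the peroxidase median was then -0.57 and that of berberine bridge enzyme-like genes -0.98. The planned search for promoter motifs was not run, since no promoter sequences were used here. Probe sets near background give only lower bounds of a change.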

Other observations

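The strongest change in either direction lay on probe sets that have no gene name here. The probe set that rose most read 2.83, 2.87 and 2.53 in Col-0 and 8.12, 7.99 and 7.97 in xrn3-8, from near background to a clear signal (5.28 ± 0.11). The probe set that fell most read 9.11, 8.77 and 8.98 in Col-0 and 3.28, 3.47 and 3.19 in xrn3-8 (-5.64 ± 0.14). In all, 136 of the 275 probe sets that were at least 2-fold higher and 153 of the 317 that were at least 2-fold lower are not assigned to a single gene here.

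Calls rose with signal. Of the dimmest 20% of probe sets by mean signal 1.65% were higher and 1.49% lower in xrn3-8, and of the brightest 20% the shares were 25.1% and 25.7%. Genes annotated as pseudogenes were mostly dark on these arrays: 817 of 989 had both means under 3.01. Of the 989, 9 were higher and 15 lower, or 2.43% called beside 28.8% of all named genes. Calls of at least 2-fold numbered 0, beside 1.04% higher and 1.23% lower of all named genes. With most of them unreadable, these counts do not show whether pseudogene transcripts differed.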
